A study of Homo sapiens with 18 samples.

Results

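PEO1 and PEO4 are ovarian cancer cell lines from the same patient with high-grade serous ovarian cancer. PEO1 came from the disease while it was clinically sensitive to platinum, and PEO4 from the disease after clinical resistance had developed. The paper states that both were isolated after platinum-based treatment, so PEO1 does not stand for untreated disease. The comparison asks which genes and pathways differed in the resistant line. It takes 6 of the 18 RNA-seq libraries of the series, 3 of PEO1 and 3 of PEO4, and all 12853 genes of the deposited table.

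Both lines were grown in the same medium with fetal bovine serum, and the labels give no treatment for either. Total RNA was depleted of ribosomal RNA before strand-marked libraries were made. The other 12 libraries come from another pair of lines made from patients (PEA1 and PEA2) and from a sensitive line with its resistant counterpart (A2780 and CP70). Each side of the comparison is a single line from a single patient, so resistance and any other difference between the lines cannot be told apart. The labels number 3 replicates per line without saying whether they were separate cultures. The fit pooled the spread between replicates over all 18 libraries, those of the other lines included. Except where the 6 libraries alone are named, the p-values measure this pooled spread, which may be technical.

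The 6 libraries held between 2516688 and 7067336 reads on the listed genes. At that depth 3 reads were worth between 0.452 and 1.22 CPM, the counts per 1e+06 reads, a limit that covers counting error only. PEO1 replicate 3 was the deepest library and stood apart. It differed from the other PEO1 libraries with a chi-square per degree of freedom of 11.3 and 13.5, against 1.74 to 2.76 between the other replicate pairs. Small RNA genes held more reads there, such as MIR3687 (45839, against 3358 and 3815) and SNORD3A (4849, against 190 and 106), while CTD-2328D6.1 had 0 against 746 and 357. Without it 386 genes were called higher and 423 lower, against 367 and 433 with it, by the rule given below.

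High-grade serous ovarian cancer is an epithelial tumor thought to arise largely from the secretory cells of the fallopian tube, and it keeps the lineage factors PAX8 and WT1 and the surface antigen MUC16, known in the clinic as CA125. Both lines carried these markers. MUC16 ranged from 11.19 to 11.80 on the log2 CPM scale in PEO1 and from 10.99 to 11.90 in PEO4, and the libraries overlapped. PAX8 was at 7.33, 7.29 and 7.29 in PEO1 and between 7.89 and 8.001 in PEO4, and WT1 at 6.46, 6.44 and 6.57 against 7.79, 7.92 and 8.08. WT1 was higher in PEO4 (log2FC 1.44, SE 0.35, FDR 0.00243), while PAX8 did not pass with the spread of all 18 libraries (log2FC 0.65, FDR 0.0597) and passed with the spread of the 6 libraries alone (FDR 5.29e-06). The epithelial keratins KRT8 and KRT18 and the adhesion molecule EPCAM were well above the reading limit in all 6 libraries. Of 20 markers of leukocytes only PTPRC was in the table, and it had 0 reads in all 6 libraries.

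log2FC is the difference of mean log2 CPM, PEO4 minus PEO1, and the FDR is the Benjamini-Hochberg adjusted p of limma over all 12853 genes. At an FDR below 0.05, 5336 genes differed (41.5%), 2525 of them higher in PEO4 (19.6%) and 2811 lower (21.9%). Many of these changes were small, and 54.7% of them were below 1 on the log2 scale. The counts of the gene lists below stand against the shares of 19.6% higher and 21.9% lower. With |log2FC| above 2 as a further condition, 800 genes were called (6.22%), 367 higher (2.86%) and 433 lower (3.37%). Of the called genes, 90 of those higher had at most 3 reads in every PEO1 library and 120 of those lower at most 3 reads in every PEO4 library. In RNA from a whole culture, fewer cells that express a gene and less RNA per cell cannot be told apart.

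At the top of the ranking stood AKR1D1, a steroid 5-beta-reductase of bile acid and steroid hormone metabolism, encoded on chromosome 7 from 137687070 to 137803051 (GRCh37). AKR1D1 had 0, 0 and 1 reads in PEO1 and 572, 609 and 543 in PEO4 (log2FC 10.11, SE 0.43, FDR 8.8e-13), a ratio of 2579 after scaling for library size (95% exact interval 462 to 101918). ZFPM2, a cofactor of GATA transcription factors, went from 0, 1 and 1 reads to 332, 377 and 272. Libraries without overlap between the lines were a condition of this ranking, met by 7396 of all genes (57.5%). UNC5C, a receptor for netrins, had 0 reads in all PEO1 libraries and 72, 75 and 66 in PEO4, at least 106-fold higher when 3 reads over the PEO1 libraries are taken as the floor. NTN1, the gene of the ligand netrin-1, moved the other way, with 385, 347 and 907 reads in PEO1 and 2, 3 and 3 in PEO4 (log2FC -6.84, FDR 5.31e-11).

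The lowest log2FC among genes with enough reads belonged to PROM1, which encodes the surface glycoprotein CD133 used to mark stem-like tumor cells. PROM1 lies on chromosome 4 from 15964699 to 16086001 on the minus strand. It had 887, 823 and 1936 reads in PEO1 and 1, 3 and 3 in PEO4 (log2FC -8.26, SE 0.43, FDR 1.64e-11). S1PR1, a receptor for the lipid mediator sphingosine 1-phosphate, fell from 150, 152 and 381 reads to 1, 0 and 0. XYLT1, which starts glycosaminoglycan chains on proteoglycans, PEG3, an imprinted zinc finger gene, the cadherin CDH4, the lipase LPL and the phospholipid flippase ATP8A2 all had 0 reads in every PEO4 library. They were at least 93.6-, 70.2-, 66.4-, 58.8- and 59.9-fold lower there. The list of the 10 highest also held OBP2B, an odorant binding protein with a close paralog, TMEM132E and the unnamed gene ENSG00000227706 on chromosome 6, and the 10 lowest held SCG5, which encodes the neuroendocrine protein 7B2.

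**Figure D1:**
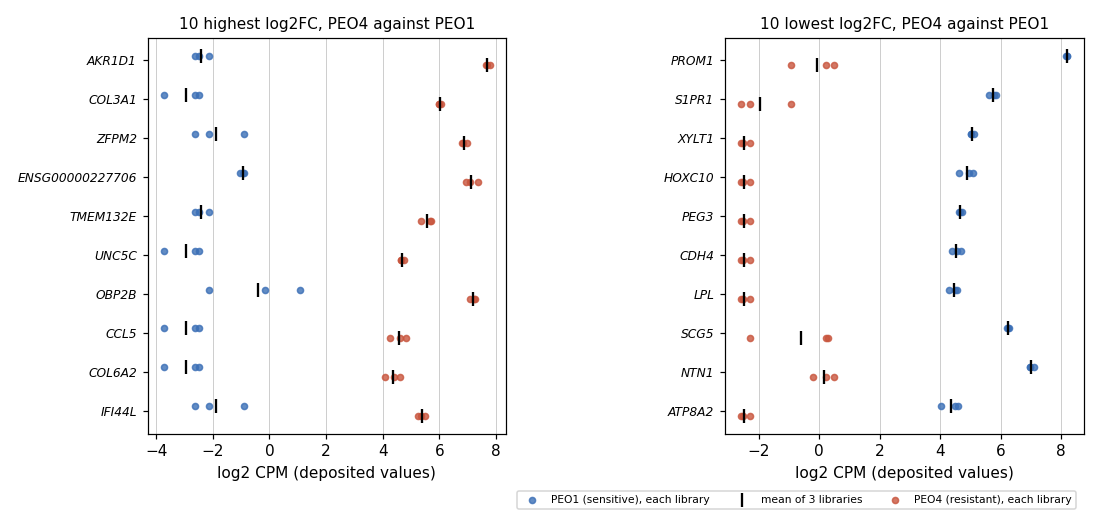
Deposited log2 CPM of the 10 genes with the highest and the 10 with the lowest log2FC in the 3 PEO1 libraries (blue) and the 3 PEO4 libraries (red), with black ticks at the means. The 20 genes were picked among those without overlap between the lines. Values below 0 are libraries with few or no reads, such as PEO4 replicate 1 for PROM1 with 1 read.

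Interferon-stimulated genes were higher in PEO4 almost throughout. Type I interferons signal through the receptor chains IFNAR1 and IFNAR2 and the kinases JAK1 and TYK2 to transcription factors that bind a short element in the promoters of antiviral genes. The pathway is known in tumor cells as an answer to nucleic acid in the cytosol. Of 67 such genes tested, 55 were higher in PEO4 (82.1%, against 19.6% of all genes) and 2 were lower, with a median log2FC of 1.89 against -0.02 over all genes. Together their level rose from between 3290 and 3491 CPM per PEO1 library to between 10335 and 10787 CPM per PEO4 library. With each gene set against the median of its own 20 Mb stretch of chromosome, the median was 1.70. IRF9 was not analysed here.

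The antiviral effectors were the largest group among them. Of 41 tested, 39 were higher and 0 lower, with a median log2FC of 2.80. IFI44L went from 0, 1 and 1 reads to 109, 136 and 101, and BST2, the tetherin that holds budding virus particles at the cell surface, from 0, 0 and 3 to 46, 42 and 61. The PEO4 libraries were above the PEO1 libraries for both genes without overlap, and 57.5% of all genes had no overlap in either direction. MX1, a GTPase that traps viral nucleocapsids, was at 2.88, 3.35 and 3.45 log2 CPM in PEO1 and 9.13, 9.05 and 9.02 in PEO4 (log2FC 5.84, SE 0.43, FDR 2.02e-09). It sits on chromosome 21, in a stretch with a median log2FC of 0.78, and overlaps TMPRSS2 on the opposite strand. The strand setting of the counting is not given in the sources used here, so reads of such pairs cannot be told apart. IFIT1, which binds viral RNA caps, rose by 5.83 (FDR 4.33e-14), the 2-5A synthetase OAS2 by 5.41 (FDR 1.43e-09) and the ubiquitin-like modifier ISG15 by 4.30 (FDR 1.56e-11). IFITM1 and IFITM2, which block virus entry, had 1, 0, 5 and 0, 0, 2 reads in PEO1 and 140, 147, 111 and 83, 81, 72 in PEO4. They resemble each other and IFITM3 in sequence, and how reads that match several genes were counted is not given in the sources used here. The guanylate-binding proteins GBP1 (log2FC 0.35) and GBP2 (log2FC 0.29), better known as targets of interferon gamma, were the effectors that did not pass.

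Many promoters of these genes held the core of a known interferon element. In windows of 250 bases before the start of each gene (RefSeq, GRCh38.p14), the letters GAAANNGAA on either strand, the core of the interferon response element, were found in 19 of 32 effectors that were higher in PEO4 and had a promoter in the table (59.4%), against 5.41% of the 9614 matched genes of the expression table and 7.06% of 27195 promoters of that length. Over all members that were higher it was found in 22 of 43 (51.2%), so many higher genes lacked these letters in this window. Among members with a promoter there, 1 of 5 that did not pass (20%) and 0 of 2 lower ones held it. Of the 1867 matched genes of the whole table that were higher in PEO4, 6.70% held it. The match is a description of the letters and not a measured binding site. The stretches below are those of the 6 effectors with the largest log2FC among those that held the core, read 5′ to 3′ on the gene's strand, with the core in capitals (its complement where it lies on the opposite strand). BST2 held overlapping copies and IFIT1 a pair on the opposite strand.
IFI44L, chr1:78620355-78620403, plus strand: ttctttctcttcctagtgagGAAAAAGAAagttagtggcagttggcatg
IFITM1, chr11:313980-314028, plus strand: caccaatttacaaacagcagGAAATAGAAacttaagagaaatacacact
BST2, chr19:17405726-17405774, minus strand: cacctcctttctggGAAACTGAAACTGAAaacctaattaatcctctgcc
IFIT1, chr10:89392501-89392549, plus strand: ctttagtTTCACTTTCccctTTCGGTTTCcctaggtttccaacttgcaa
IFI44, chr1:78649752-78649788, plus strand: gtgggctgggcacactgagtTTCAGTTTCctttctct
IFI6, chr1:27672257-27672305, minus strand: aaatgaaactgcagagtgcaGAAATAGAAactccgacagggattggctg

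Sensors and signaling factors of the pathway were examined beside its effectors. Of the 6 nucleic acid sensors 5 were higher. Of 15 signaling factors 6 were higher, 2 lower and 7 did not pass, with a median log2FC of 0.50, or 0.26 against the medians of their windows. TLR3, which senses double-stranded RNA in endosomes, rose by 2.62 (FDR 1.4e-05), IFIH1 (MDA5) by 2.61, DDX58 (RIG-I) by 2.06 and MB21D1 (cGAS, the sensor of cytosolic DNA) by 1.38. TMEM173 (STING) had a log2FC of 0.89 and did not pass. The signal transducer STAT2 (log2FC 1.52), IRF7 (1.69), IRF1 (0.90), IFNGR2 (1.15) and IFNAR1 (0.94) were also higher, whereas JAK1 (-0.15), TYK2 (-0.37) and JAK2 (0.31) did not pass. IFNAR1 and IFNGR2 lie on chromosome 21 in a stretch with a median of 0.89. The 2 members that fell were the feedback inhibitor SOCS3 (log2FC -1.25, FDR 6.9e-06) and STAT3 (log2FC -0.94, FDR 3.74e-07). PARP9 (log2FC 2.29) and its partner ubiquitin ligase DTX3L (1.15), which neighbor each other on chromosome 3 and act together on chromatin after DNA damage and in interferon responses, were both higher, as were PARP14 (1.89) and PARP10 (2.18), the latter in the chromosome 8 stretch with a median of 1.40.

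**Figure D2:**
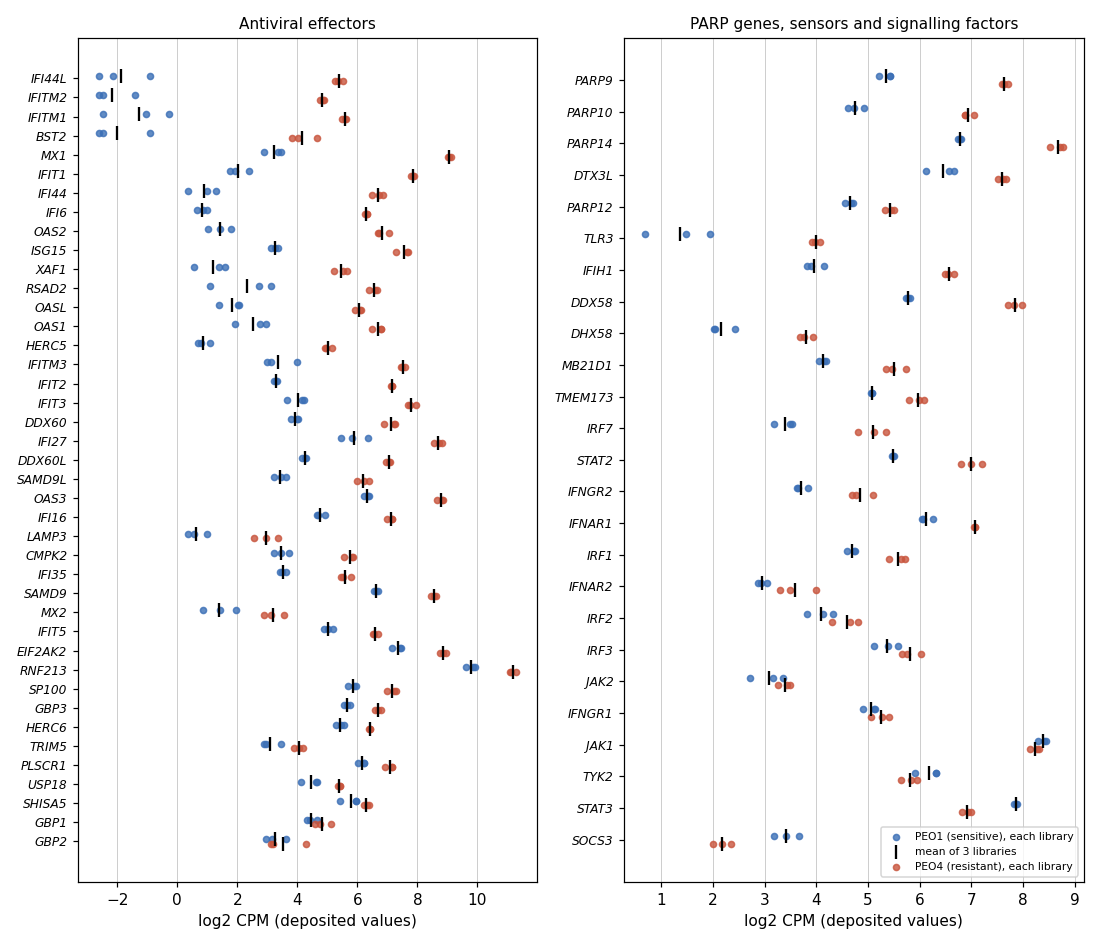
Deposited log2 CPM of interferon-stimulated genes in each PEO1 library (blue) and PEO4 library (red), with black ticks at the means, effectors on the left and PARP genes, sensors and signaling factors on the right. The PEO4 points lie to the right for the 39 of 41 effectors that passed, while SOCS3 and STAT3 lie to the left.

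MHC class I presentation, which displays peptides to cytotoxic T cells and is itself inducible by interferon, was higher in PEO4 as well. Of 19 genes 16 rose and 1 fell, with a median log2FC of 1.06. The immunoproteasome subunits PSMB9 (log2FC 2.37) and PSMB8 (log2FC 2.24) and the peptide transporter TAP1 (log2FC 1.59) were among those that rose. All 3 lie between 20 and 40 Mb of chromosome 6, where 148 of 201 tested genes were higher and the median log2FC was 1.003. Against the medians of their windows the list had a median of 0.49. B2M, the class I light chain, encoded on chromosome 15 in a window with a median of -0.66, rose by 0.26 (FDR 0.00439). PDIA3, a chaperone of peptide loading, was the member that fell (log2FC -0.30, FDR 0.0122, and at most 0.077 when a library was left out).

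Inflammatory genes that answer to NF-kB did not follow the interferon genes. NF-kB is the factor downstream of TNF and IL1 receptors that drives many cytokines. Of 48 factors, cytokines, chemokines and targets, 5 were higher and 18 lower, against a background of 19.6% and 21.9%, and among the 19 cytokines and chemokines 2 were higher and 10 lower with a median log2FC of -1.45. The fall was weaker outside that group. Of 16 receptors and targets 1 was higher, 3 were lower and 12 did not pass, with a median of 0.14. Of 13 factors and inhibitors 2 were higher and 5 lower, with a median of -0.17. IL8, the neutrophil chemokine now called CXCL8, had 76, 61 and 194 reads in PEO1 and 6, 0 and 2 in PEO4 (log2FC -5.12, SE 0.63, FDR 1.7e-06). TNF had 23, 35 and 62 reads against 0, 1 and 1, although it lies in the same stretch of chromosome 6 as the HLA genes. Neither gene overlapped between the lines, which held for 57.5% of all genes. CXCL1 fell by 3.83, the macrophage growth factor CSF1 by 3.10, IL18 by 2.83 and IL6 by 2.00. The complement component C3 fell by 2.91 and the mitochondrial dismutase SOD2 by 1.89. The feedback inhibitors NFKBIA (log2FC -1.19) and TNFAIP3 (log2FC -1.25) were lower with them.

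CCL5, a chemokine for T cells that interferon also induces, went up. It had 0 reads in every PEO1 library and 70, 57 and 70 in PEO4, at least 98.2-fold higher. The receptor CD40 (log2FC 2.04), NFKBIE (1.08), NFKB1 (0.38) and, from 1 read in each PEO1 library to 7, 3 and 3 in PEO4, the chemokine CX3CL1 (2.06) were the other members that rose. A kappaB form, GGAANTTCC on either strand, stood in the promoters of 4 of the 14 lower members with a promoter in the table (28.6%), of 4 of 18 that did not pass (22.2%) and of the 1 higher member with a promoter there, against 0.905% of the matched genes.

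**Figure D3:**
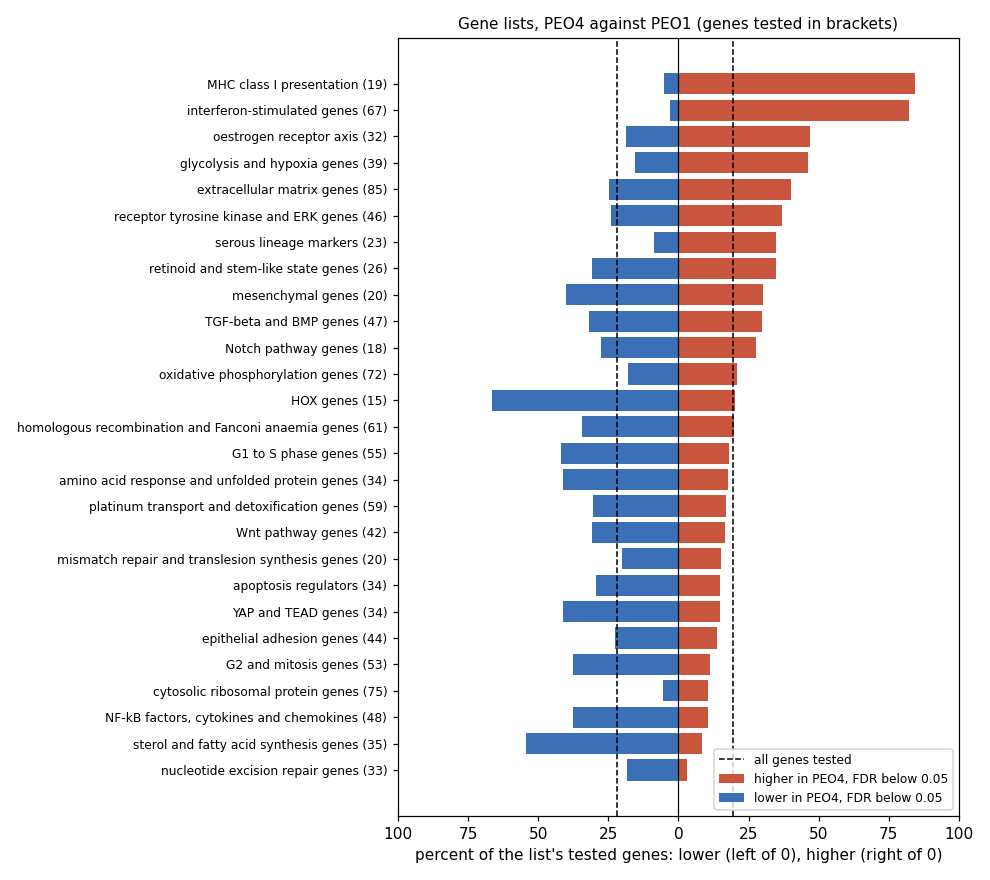
Percent of each gene list that was higher (red, to the right) or lower (blue, to the left) in PEO4 at an FDR below 0.05, for lists with at least 15 tested genes. Dashed lines give the shares over all genes, 19.6% higher and 21.9% lower. Interferon-stimulated and MHC class I genes reach past 80% to the right, and HOX and sterol synthesis genes past 50% to the left.

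Genes of the extracellular matrix changed in both directions, with 34 of 85 higher (40%), 21 lower (24.7%) and a median log2FC of 0.23. Over all genes the shares were 19.6% and 21.9%. Collagens moved both ways. COL3A1, a fibrillar collagen encoded on chromosome 2 from 189839099 to 189877472, had 0 reads in each PEO1 library and 193, 189 and 156 in PEO4, at least 268-fold higher. COL6A2, a chain of the microfibrillar collagen VI, went from 0 reads in each library to 61, 50 and 59, at least 84.8-fold higher, and its neighbor COL6A1 rose by 2.50. COL4A1 and COL4A2, the paired chains of basement membrane collagen IV, went the other way, from 162, 119 and 289 reads and 242, 231 and 614 reads to 4, 1, 2 and 2, 2, 5. In all, 9 of 16 collagens were higher and 4 lower, the latter being COL4A1, COL4A2, COL5A1 (log2FC -2.10) and COL8A1 (log2FC -3.60). COL6A1 and COL6A2 are on chromosome 21, whose 122 tested genes had a median log2FC of 0.80.

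Of the enzymes that shape the matrix, the membrane-bound metalloprotease MMP14 rose from 3 reads in each PEO1 library to 155, 123 and 147 (ratio 70.6, 95% exact interval 36.9 to 156). MMP2, which MMP14 activates, rose by 2.51, the plasminogen activator PLAT by 3.61 and ADAMTS1 by 3.47. Of the 16 proteases and inhibitors tested, 7 were higher (43.8%) and 3 lower (18.8%), with a lowest log2FC of -2.52. LAMA4, a laminin chain of vessel and muscle basement membranes, rose by 3.91 and FBLN2 by 5.51. Thrombospondin THBS1 fell by 2.23 (FDR 2.16e-11), fibronectin (FN1) had a log2FC of -1.36 and TGFBI of -3.92, both lower.

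COL3A1 and COL1A2 are also markers of fibroblasts, a cell type a tumor culture could hold. Of 11 fibroblast markers tested 5 were higher in PEO4 and 0 lower, with a median log2FC of 0.999 (0.47 with genes at 0 reads in a line set to the bound that 3 reads give). PTPRC, with 0 reads in all 6 libraries, had the same log2FC of 0.47, from the reads added and the library sizes. The bounded median is therefore no sign of a rise. The defining fibroblast genes DCN, LUM and POSTN had at most 1 read in any of the 6 libraries, and COL1A1 (log2FC 0.44), PDPN (log2FC -0.84) and THY1 (log2FC -0.09) did not pass.

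Epithelial adhesion genes were near the background of 19.6% and 21.9% as a list, 6 of 44 higher (13.6%) and 10 lower (22.7%). Single members lost most of their expression. EHF, an ETS factor of epithelial differentiation, had 446, 395 and 963 reads in PEO1 and 2, 3 and 7 in PEO4 (log2FC -6.63, SE 0.55, FDR 9.83e-09). The tight junction protein CLDN1 was at 9.32, 9.43 and 9.41 in PEO1 and at 5.63, 5.72 and 5.51 in PEO4. The basal keratin KRT5, counted among mesothelial markers, showed a like drop, from 9.99, 9.83 and 9.89 to 4.75, 4.41 and 4.73 (log2FC -5.28). P-cadherin CDH3 (log2FC -2.76), KRT7 (-2.44) and L1CAM (-4.87), an adhesion molecule on the X chromosome, fell. BCAM, a laminin receptor, rose by 1.90.

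E-cadherin CDH1 was at 6.97, 7.21 and 7.32 in PEO1 and 6.57, 6.53 and 6.55 in PEO4, without overlap (like 57.5% of all genes). It did not pass in the fit of 18 libraries (log2FC -0.62, FDR 0.397), where the PEA1 libraries had an SD of 1.82 against 0.18 and 0.02 in PEO1 and PEO4, and it passed in the 6 libraries alone (FDR 9.05e-05). KRT8 and KRT18 showed the same, with log2FC -0.33 and -0.37 and an FDR of 0.504 and 0.0548 in 18 libraries and of 0.0067 and 0.00284 in 6. With the 6 libraries alone, 11 epithelial adhesion genes were higher and 16 lower. In that fit 3129 of all 12853 genes were higher and 3352 lower, against 2525 and 2811 in the fit of 18 libraries.

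Mesenchymal genes also split. Of 20 tested 6 were higher (30%) and 8 lower (40%), against 19.6% and 21.9% of all genes. The intermediate filament vimentin (VIM) rose from 3.36, 4.09 and 3.55 to 5.31, 5.33 and 5.49 (log2FC 1.71, FDR 2.97e-09), and the myosin light chain MYL9 from 2, 0 and 6 reads to 19, 19 and 33. SNAI2, a transcription factor of the mesenchymal state, was lower (log2FC -2.12) with 3, 4 and 15 reads against 0, 1 and 1. The crosslinking enzyme LOXL2 fell by 2.05 and the kinase receptor AXL by 1.95.

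The HOX genes, which set position along the body axis and, in the female tract, the identity of its segments, were mostly lower. Of 39 genes 15 were tested, 10 were lower, 3 higher, and the median log2FC was -2.51 (-2.16 with genes at 0 reads set to their bound, and -1.63 with 2 reads added in place of 0.5). The summed level of the 15 ran the other way, from between 296 and 341 CPM per PEO1 library to between 473 and 497 CPM per PEO4 library. HOXC10 had 95, 95 and 163 reads in PEO1 and none in PEO4, at least 78.7-fold lower. HOXB9 (24, 38 and 50 reads) and HOXC9 (25, 23 and 34 reads) had no read in PEO4, at least 24.96- and 18.3-fold lower. Within the HOXB cluster on chromosome 17, HOXB2 (log2FC 0.90), HOXB3 (1.51) and HOXB4 (1.30) at the 3′ end were higher, whereas HOXB5 (-0.92, FDR 0.0171 and at most 0.074 with a library left out), HOXB6 (-3.57), HOXB7 (-2.33), HOXB8 (-4.99) and HOXB9 (-5.71) were lower. The 20 Mb window around the cluster had a median log2FC of 0.16. HOXC8 (log2FC -3.98), HOXC6 (-3.35) and HOXA3 (-2.51) were also lower.

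Other markers of lineage changed as well. Folate receptor FOLR1, a surface target in serous cancer, had 0, 0 and 1 reads in PEO1 and 37, 48 and 45 in PEO4, and WFDC2, which encodes the serum marker HE4, rose by 2.16. MECOM, a transcription factor of the tubal epithelium, had 76, 65 and 144 reads in PEO1 and 0, 3 and 2 in PEO4. EMX2, a homeobox factor of the urogenital tract, rose from 2.81, 2.37 and 2.61 to 6.43, 6.27 and 6.07 (log2FC 3.66). Of 23 serous lineage markers 8 were higher (34.8%) and 2 lower (8.70%), against 19.6% and 21.9% of all genes.

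Retinoid genes were changed on both sides, 6 of 17 higher (35.3%) and 4 lower (23.5%), against 19.6% and 21.9% of all genes. CRABP2, the protein that carries retinoic acid to its nuclear receptors, was at 2.59, 2.04 and 2.54 in PEO1 and 9.13, 8.96 and 9.09 in PEO4 (log2FC 6.67, SE 0.49, FDR 1.66e-09). RARRES3 (log2FC 3.49), RARRES2 (2.39) and the receptor RARA (2.10) were higher with it, whereas the retinaldehyde dehydrogenase ALDH1A3 (-2.30), the retinol transporter STRA6 (-2.82) and RARRES1 (-3.05) were lower. Among markers used for stem-like cells CD44 (log2FC -2.08), KLF4 (-1.71) and BMI1 (-1.26) fell beside PROM1, while NES (3.21) rose.

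Growth factor receptors changed in both directions, 5 of 20 higher (25%) and 6 lower (30%), against 19.6% and 21.9% of all genes. ERBB4, the neuregulin receptor of the EGF receptor family, had 0, 0 and 7 reads in PEO1 and 68, 134 and 80 in PEO4 (log2FC 6.67, FDR 6.27e-08). EGFR was at 8.71, 8.69 and 8.78 in PEO1 and fell to 6.57, 6.64 and 6.41 (log2FC -2.19, FDR 1.08e-07), and ERBB2 and ERBB3 did not pass (log2FC -0.18 and -0.01). FGFR4 (log2FC 3.10) and FGFR3 (2.55) rose, and FGFR1 (-2.19) and FGFR2 (-1.29) fell. Among the EGF family ligands EREG rose by 3.46 (8, 5 and 12 reads against 71, 71 and 57) and AREG fell by 3.30 (44, 30 and 73 reads against 1, 10 and 2), although they are neighbors on chromosome 4 in a window with a median of -0.78.

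Genes that are switched on by the ERK kinases were more often higher, 10 of 20 (50%) with 3 lower (15%), against 19.6% and 21.9% of all genes. They include EGR1 (log2FC 2.61), FOS (1.94), JUN (1.57), PHLDA1 (2.08) and the feedback inhibitor SPRY1 (3.16). DUSP4 (log2FC -2.43), IER3 (-2.78) and CCND1 (-0.54) were the members that fell.

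**Figure D4:**
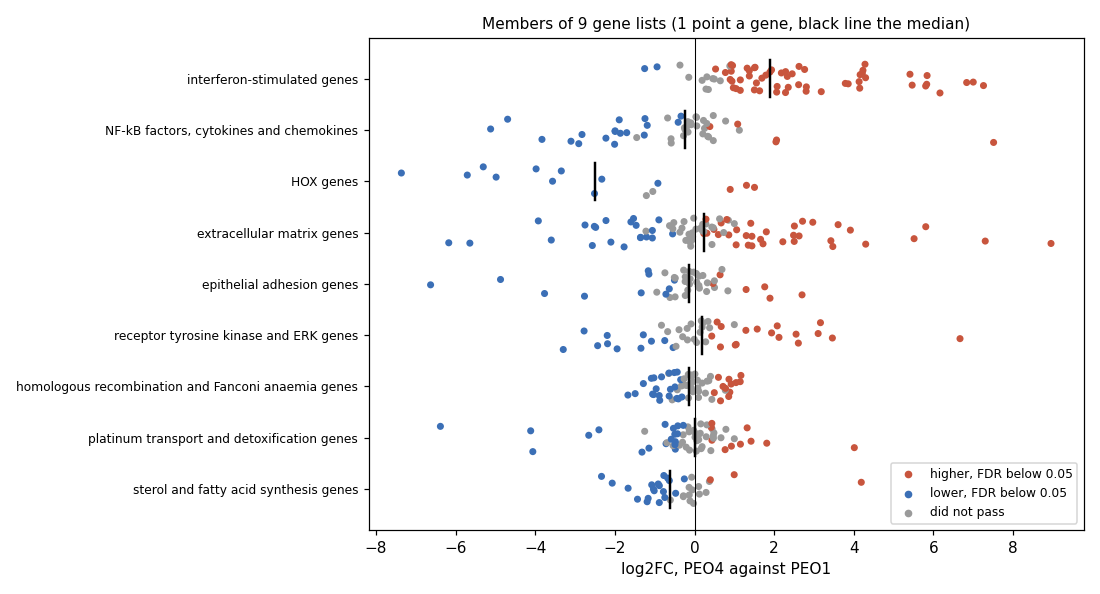
log2FC of each tested member of 9 gene lists, 1 point a gene, red where higher and blue where lower at an FDR below 0.05, gray where the gene did not pass, with a black line at each list's median. The interferon-stimulated genes lie almost wholly to the right (median 1.89) and the HOX genes mostly to the left (median -2.51), while repair genes stay within 2 on either side.

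Of the TGF-beta and BMP genes 14 of 47 were higher (29.8%) and 15 lower (31.9%), against 19.6% and 21.9% of all genes. The inhibin beta chains, which form activins, fell, INHBB from 386, 384 and 965 reads to 15, 11 and 11 (log2FC -4.89) and INHBA by 3.21, and so did TGFB2 (ratio 14.0, 95% exact interval 3.65 to 120, higher in PEO1). BMP7 rose from 8, 2 and 8 reads to 122, 144 and 122 (log2FC 4.99, FDR 7.85e-07), and ID4, an inhibitor of helix-loop-helix factors, from 5.22, 4.97 and 5.11 log2 CPM to 9.38, 9.42 and 9.47 (log2FC 4.33). ID4 lies on chromosome 6 in a window with a median of 0.69. ID1 (log2FC -0.40) and ID2 (-0.02) did not pass and ID3 fell by 0.87.

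In the Wnt pathway 7 of 42 genes were higher (16.7%) and 13 lower (31.0%), against 19.6% and 21.9% of all genes. WNT11, a ligand of the noncanonical branch, had 3, 1 and 4 reads in PEO1 and 114, 104 and 113 in PEO4. The secreted inhibitor DKK1 fell from 68, 59 and 183 reads to 1, 4 and 2, and the ligands WNT7B (log2FC -3.12) and WNT5B (-2.56) and the corepressor TLE4 (-2.21) were lower. WNT7B is on chromosome 22 between 40 and 60 Mb, where the median log2FC was -1.07.

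Of the Notch genes 5 of 18 were higher (27.8%) and 5 lower (27.8%), against 19.6% and 21.9% of all genes. The count of lower genes was 3 without PEO1 replicate 3, PEO4 replicate 1 or PEO4 replicate 2. The ligand JAG1 fell by 4.14 (64, 75 and 144 reads against 3, 5 and 2) on the short arm of chromosome 20, where the median was -1.04, while the targets HES4 (log2FC 2.77) and HES1 (1.38) rose. Of 34 genes of the YAP and TEAD axis 5 were higher (14.7%) and 14 lower (41.2%). Among the latter were TEAD2 (log2FC -3.26), NUAK2 (-3.84), ANKRD1 (-3.01) and CYR61 (-1.06), and CTGF (1.54), a target of the same factors, was higher.

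Steroid hormone receptors and their targets were more often higher, 15 of 32 (46.9%) with 6 lower (18.8%) and a median log2FC of 0.47. Over all genes the shares were 19.6% and 21.9%. The glucocorticoid receptor NR3C1 rose by 1.18. ESR1, the estrogen receptor, was at 7.82, 7.83 and 7.87 against 7.98, 8.20 and 7.99, a log2FC of 0.22 that did not pass in 18 libraries (FDR 0.732) and passed narrowly in 6 (FDR 0.0415). Of its known targets PDZK1 (log2FC 1.78) and SERPINA1 (3.16) were higher, and AREG and ADCY9 (-1.66) lower. PGR was not analysed here.

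Platinum kills cells through adducts and crosslinks on DNA, and the pathways that repair them are those most often examined in resistance. In homologous recombination and the Fanconi anemia pathway, which repair crosslinks and double-strand breaks, 12 of 61 genes were higher (19.7%) and 21 lower (34.4%). Over all genes the shares were 19.6% and 21.9%. None of the 61 changed by more than 2 on the log2 scale. The Fanconi anemia and resolution group held 11 of the lower genes against 2 higher. FANCB fell by 1.49, FANCA by 1.05 and the exonuclease EXO1 by 1.67, the latter on chromosome 1 beyond 240 Mb, where the median was -1.20. FANCB lies in a window of the X chromosome with a median of -0.84.

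BRCA1 fell by 0.44 (FDR 0.00361). BRCA2 had 111, 89 and 250 reads against 98, 81 and 85, with levels that overlapped, with a log2FC of -0.15 (FDR 0.424). Gene counts hold nothing on the sequence of either transcript. RAD52 (log2FC 1.15), SWI5 (1.16) and RAD51C (1.04) rose.

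In damage sensing and the checkpoint 7 of 19 genes rose (36.8%) and 4 fell (21.1%), against 19.6% and 21.9% of all genes. RAD50 (log2FC 0.92), RIF1 (0.86), NBN (0.72) and the kinase ATM (0.65) were among those that rose and ATR (-0.88), HUS1 (-0.96) and RNF168 (-1.02) among those that fell. NBN, RIF1 and RAD50 lie in windows of chromosomes 8, 2 and 5 that were themselves shifted upward.

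Nucleotide excision repair, the main route for platinum adducts within a strand, had 1 of 33 genes higher (3.03%) and 6 lower (18.2%). ERCC1, which cuts on the 5′ side of an adduct, was at 5.56, 5.65 and 5.32 in PEO1 and 5.78, 5.56 and 5.99 in PEO4 (log2FC 0.26, FDR 0.255). The damage sensor DDB2 fell by 0.92 (FDR 0.011), a call lost without PEO4 replicate 1 (FDR 0.0799). CETN2 and the sliding clamp PCNA fell by 1.45 and 1.63, in stretches with medians of -1.16 and -1.04. Of 20 mismatch repair and translesion synthesis genes 3 were higher (15%) and 4 lower (20%), against 19.6% and 21.9% of all genes.

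Of 59 genes of platinum transport and detoxification 10 were higher (16.9%) and 18 lower (30.5%), against 19.6% and 21.9% of all genes. The list had a median log2FC of 0.001. SLC22A3, an organic cation transporter that can carry platinum drugs, lost nearly all its reads, from 818, 712 and 1738 in PEO1 to 5, 12 and 9 in PEO4 (log2FC -6.38, SE 0.49, FDR 3.05e-09). The lipid transporter ABCA3 fell by 4.06, from 407, 367 and 1027 reads to 23, 21 and 24. The copper transporter SLC31A1, a proposed entry route for cisplatin, fell by 0.42 (FDR 0.0161), with libraries that overlapped, and the call was lost without PEO1 replicate 3 (FDR 0.0899), PEO4 replicate 1 (FDR 0.107) or PEO4 replicate 2 (FDR 0.0583). The copper exporter ATP7B did not pass (log2FC -0.54, FDR 0.259) and ATP7A rose by 0.93. ABCB1 was not analysed here.

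Among protective enzymes the metallothionein MT1G (log2FC -4.12) and heme oxygenase HMOX1 (-2.66) fell, and AKR1B10 rose from 0, 2 and 0 reads to 14, 6 and 10. NFE2L2, which encodes the master regulator NRF2, rose by 1.32, whereas its targets split, with GCLC (log2FC 1.15) and NQO1 (0.42) higher and GCLM (-0.72) lower.

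Replication and mitosis genes were more often lower than higher, and none passed 2 on the log2 scale. Of 32 replication genes 2 were higher and 16 lower, and of 53 mitotic genes 6 and 20, against 19.6% and 21.9% of all genes. Of 23 cyclins, CDKs and their inhibitors 8 were higher and 7 lower, with a median log2FC of 0.32. KIF20A, a mitotic kinesin, rose by 1.29. The proliferation marker MKI67 did not pass (log2FC -0.23, FDR 0.124), though it did without PEO1 replicate 3 (log2FC -0.34, FDR 0.0344). FOXM1, a factor that drives mitotic genes, fell by 1.27 and the phosphatase CDC25B by 1.96, the latter in the chromosome 20 stretch with a median of -1.04. MCM2 (log2FC -0.74), MCM4 (-0.69) and CDC6 (-0.74) were lower and MCM3 (0.81), on chromosome 6, higher. CCNE1 rose by 0.80 (FDR 0.0256) and lost that call without PEO1 replicate 2 (FDR 0.215), PEO4 replicate 1 (FDR 0.0611) or PEO4 replicate 3 (FDR 0.0874), and MYC did not pass (log2FC 0.19). The transcription factors E2F5 (log2FC 1.67) and E2F3 (1.07) and the kinase CDK6 (1.07) rose.

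Of 34 apoptosis genes 5 were higher (14.7%) and 10 lower (29.4%), against 19.6% and 21.9% of all genes. The count of higher genes was 2 without PEO4 replicate 1. It was 3 without PEO1 replicate 1, PEO1 replicate 2, PEO4 replicate 2 or PEO4 replicate 3. CASP10, an initiator caspase of death receptors, had 24, 19 and 88 reads in PEO1 and none in PEO4, at least 29.2-fold lower, and the BH3-only gene HRK fell from 41, 41 and 94 reads to 1, 1 and 0. The proapoptotic BCL2L11 (log2FC -1.25) and BMF (-1.69), the antiapoptotic BCL2 (-1.43) and the inhibitor BIRC3 (-2.01) fell as well, and BAK1 rose by 1.32.

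Sterol and fatty acid synthesis had 19 of 35 genes lower (54.3%) and 3 higher and a median log2FC of -0.61. SREBF2, the transcription factor that switches on cholesterol synthesis, was at 7.72, 7.67 and 7.76 in PEO1 and 5.03, 5.59 and 5.51 in PEO4 (log2FC -2.34, FDR 5.54e-11). It lies in the stretch of chromosome 22 with a median of -1.07. NSDHL, on the X chromosome in a stretch with a median of -1.16, fell by 2.07. Genes elsewhere fell too, with INSIG1 (log2FC -1.67) and HMGCS1 (-1.01). Against the medians of their windows the list had a median of -0.67.

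Genes of glycolysis and of the hypoxia response were more often higher, 18 of 39 (46.2%) with 6 lower (15.4%), against 19.6% and 21.9% of all genes. VEGFA was at 4.26, 4.29 and 4.19 in PEO1 and 6.59, 6.92 and 6.72 in PEO4 (log2FC 2.50, FDR 1.41e-11), in a stretch of chromosome 6 with a median of 0.84. The kinases PFKFB4 (log2FC 2.23) and PDK1 (1.95) and the prolyl hydroxylase P4HA1 (1.66) rose, HIF1A did not pass (-0.04), and EPAS1, which encodes HIF2-alpha, was lower (-2.44). Of 19 genes that ATF4 switches on in amino acid shortage 11 were lower and 2 higher, with TRIB3 (log2FC -2.68) and ALDH1L2 (-2.33) among the lower and GLDC (3.15) higher. ATF4 itself did not pass (0.02).

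Of 75 ribosomal protein genes 8 were higher (10.7%) and 4 lower (5.33%), and of 72 subunits of oxidative phosphorylation 15 (20.8%) and 13 (18.1%). Over all genes the shares were 19.6% and 21.9%. RPL8, on the end of chromosome 8, rose by 1.25 in a stretch with a median of 1.40, and RPL38 rose by 1.80. ATP5G3, a subunit of the ATP synthase ring, rose from 15, 8 and 34 reads to 171, 169 and 140 (log2FC 3.74).

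Changes were not spread evenly along the genome. Genes were placed by an annotation of GRCh37, the build of the files, in windows of 20 Mb, and 153 windows held at least 20 tested genes. In 128 of them the median log2FC was between -0.5 and 0.5, in 12 it was above and in 13 below. The 12 upper windows held 8.06% of the 12552 genes in the 153 windows and 26.6% of those among them that were higher in PEO4. In the 13 lower windows were 7.60% of the genes and 21.5% of those lower. These windows were chosen by the same values, so the shares are a description only.

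At the end of chromosome 8, from 140 to 160 Mb, 71 of 75 genes were higher, 0 were lower and the median log2FC was 1.40, a 2.64-fold level. LYNX1 (1, 3 and 2 reads against 37, 35 and 32) and C8orf31 (1, 1 and 3 against 45, 55 and 34) were the named genes there. On chromosome 6 every window from 0 to 80 Mb had a median between 0.69 and 1.003. C4B, a complement gene with a near-identical copy beside it, so that its reads may be split between them, rose there by 5.15. On chromosome 2 from 140 to 160 Mb 20 of 26 genes were higher and 0 lower, with GALNT5 (log2FC 3.41) and MBD5 (1.92) as the named genes. Chromosome 21 was shifted as a whole, with 79 of 122 genes higher and 2 lower, and it carries MX1, COL6A2 and ERG (log2FC 3.25).

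Other stretches held mostly lower genes. On chromosome 1 from 240 Mb 25 of 31 genes were lower and 0 higher, with a median of -1.20 (0.437-fold) and FMN2 (log2FC -3.94) and TRIM58 (-2.11) as the named genes. On the X chromosome from 140 Mb 47 of 57 genes were lower (median -1.16), among them L1CAM and the creatine transporter SLC6A8 (log2FC -2.93). On chromosome 22 from 40 Mb 62 of 96 were lower (median -1.07), including SREBF2, WNT7B and MAPK11 (log2FC -2.42). On chromosome 20 from 0 to 20 Mb 70 of 89 were lower (median -1.04), including PCNA, CDC25B, JAG1 and TRIB3. Leaving out any one of the 6 libraries left the median of the chromosome 8 window between 1.37 and 1.43 and that of the chromosome 1 window between -1.29 and -1.15. DNA copy number was not measured in the files used here, and its part in these runs was not tested.

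**Figure D5:**
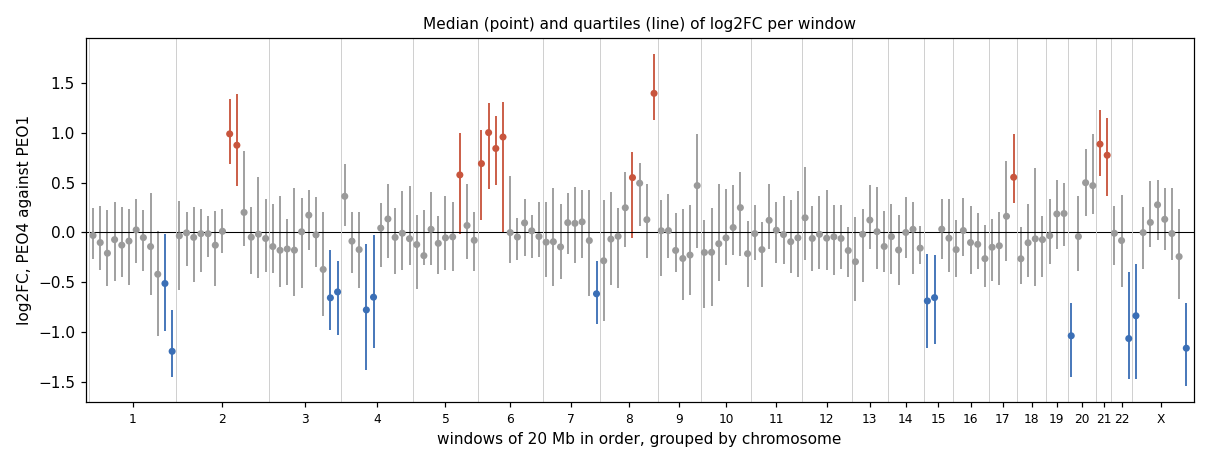
Median log2FC (points) with the quartiles (lines) of 153 windows of 20 Mb, in order and grouped by chromosome, red where the median is above 0.5, blue where it is below -0.5 and gray between. The end of chromosome 8 reaches 1.40, chromosome 6 and chromosome 21 stand above 0 over several neighboring windows, and the last window of chromosome 1 lies at -1.20.

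The PEA pair, the other pair from a patient with a resistant line, was set against these changes. The difference between the PEO4 to PEO1 and the PEA2 to PEA1 log2FC had an FDR below 0.05 for 7549 genes (58.7%), and for 684 of the 800 genes called in PEO4 (85.5%). The 800 were chosen by a large PEO4 to PEO1 change, which is part of that difference, so the second share is a description only. PROM1 fell by 8.26 in PEO4 and rose by 6.82 in PEA2, from 0, 0 and 1 reads in PEA1 to 121, 160 and 118, a difference of -15.09 (SE 0.61, FDR 1.88e-13). ZFPM2 rose by 8.76 in PEO4 and fell by 6.16 in PEA2. COL3A1, XYLT1, TMEM132E and ENSG00000227706 had 0 reads in all 6 PEA libraries, where no fold can be given.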

How the data were processed

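RNA-seq was carried out on 18 libraries, 3 replicates of each of 6 ovarian cancer cell lines. The authors aligned reads and counted them per gene, with Bowtie2, featureCounts and limma named in the submitters' processing notes and hg19 as the build, and deposited log2 CPM (counts scaled to library size) with 0.5 reads added. Versions, strand setting and the handling of reads matching several genes are not given in the sources used here. Whole reads were recovered from the deposited log2 values for 100% of them (tolerance 0.01 reads).

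The log2 values were fitted in limma 3.58.1 (R 4.3.3), with 1 mean per line over all 18 libraries, a variance trend and Benjamini-Hochberg adjustment over 12853 genes, after the fit had been tested on simulated data. Called genes had an FDR below 0.05 and |log2FC| above 2. Intervals of read ratios are exact at 95% and cover counting error only. Positions came from GRCh37 spans found for 12642 genes, and promoters from RefSeq.

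Named genes were the 10 highest and 10 lowest called genes without overlap and with at least 20 reads in every library of the higher line, the 5 (main lists) or 3 (other lists) members with the largest |log2FC| at an FDR below 0.05, a set of markers, and 2 genes in each of the 3 highest and 3 lowest windows. Other list members were named after their values had been seen. The comparison, its lists and its rules were chosen with earlier results of these data known. The alternatives were the 6 PEO libraries alone, a filter on low values, quantile normalization, 2 reads added, no trend, voom weights, a replicate block, another fold threshold and leaving out each library. Same-numbered PEO1 and PEO4 libraries did not deviate together, so the numbers were not taken as pairs. PGR, IRF9 and ABCB1 are not analysed here, and several other members of the lists are counted in them but not reported by name.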

Additional observations from a re-analysis of the deposited data

Results flagged for a closer look

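For the 5 highest and the 5 lowest genes of the ranking, the PEO4 to PEO1 change was set against the PEA2 to PEA1 change by a limma contrast of the 2 log2FC over 18 libraries. All 10 had an FDR of at most 3.56e-06, but they were picked for the size of the PEO4 to PEO1 change that the contrast contains, so this is a description and no independent test. The difference was 8.52 for AKR1D1, which had 0, 0 and 1 reads in PEA1 and 3 in each PEA2 library. It was 14.92 for ZFPM2, which had 25, 43 and 48 reads in PEA1 and 2, 0 and 0 in PEA2. COL3A1 (9.65), ENSG00000227706 (8.77), TMEM132E (8.68) and XYLT1 (-6.84) had 0 reads in every PEA library, so their differences reflect the PEO pair alone and the deposited value of 0 reads. For PROM1 the difference was -15.09, and its PEA change ran upward. S1PR1 differed by -8.84, with 15, 17 and 18 reads in PEA1 and 51, 85 and 52 in PEA2. HOXC10 (-6.14) and PEG3 (-5.14) had at most 2 reads in any PEA library.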

How the results depend on the processing

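Of the 154 named genes only MUC16 (log2FC -0.11, not passed) changed sign, to 0.08 without PEO1 replicate 3, 0.05 without PEO4 replicate 1 and 0.02 without PEO4 replicate 3. Other genes were followed only by leaving out each library, and those near 0 that had not passed, such as ERBB3, ATF4, HIF1A and GBP2, changed sign there. With |log2FC| above 1 in place of 2, 1176 genes were called higher and 1242 lower. At the threshold of 2, quantile normalization gave 508 and 546 and 2 reads added gave 291 and 350, against 367 and 433. The HOX median was -1.90 with quantile normalization and -1.63 with 2 reads added, and 8 Notch genes were lower with voom weights in place of 5. Over all genes, the 6 PEO libraries alone gave 3129 higher and 3352 lower by FDR alone, in place of 2525 and 2811. Voom weights gave 3003 and 3229. The list counts of these 2 settings stand against those larger numbers. With the 6 PEO libraries alone, 14 serous lineage markers were higher and 6 lower in place of 8 and 2, 16 ribosomal protein genes were higher and 8 lower in place of 8 and 4, 5 nucleotide excision repair genes were higher in place of 1, 8 NF-kB genes were higher in place of 5, and 11 epithelial adhesion genes were higher and 16 lower in place of 6 and 10, while voom weights gave 10 and 18. Leaving out each library in turn gave 355 to 390 called higher and 423 to 461 called lower, and 2174 to 2271 higher and 2376 to 2489 lower by FDR alone. Over the alternatives, the 154 named genes kept their call 1935 times, lost it 30 times and gained one 20 times. Genes that lost one in some setting were CALB2, CCNE1, CDKN1A, DDB2, EDA2R, EPCAM, NRARP, PSMB10 and SLC31A1, and the cause was not tested.

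The deviations of same-numbered PEO1 and PEO4 libraries correlated at -0.001, -0.016 and 0.090, so the libraries share only a number. With the replicate block, 367 genes were called higher and 433 lower, and 2470 and 2727 by FDR alone. Depth limits genes with few reads: in 90 of the called higher and 120 of the called lower genes the lower line had at most 3 reads in every library, and their fitted log2FC depend on the reads added.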

Other observations

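Mesothelial markers and markers of other cell types were looked at beside the tumor lineage. Of 9 mesothelial markers 3 were higher in PEO4, BNC1 (log2FC 4.89), LRRN4 (1.25) and WT1, and 3 lower, KRT5, KRT6A (log2FC -1.87) and CALB2 (log2FC -1.98), the last with 12 reads in total over the PEO1 libraries and 0 in PEO4. The CALB2 call was lost without PEO1 replicate 1 (FDR 0.123) or PEO1 replicate 3 (FDR 0.0797), with quantile normalization (FDR 0.102) and with 2 reads added (FDR 0.0987). Of 3 endothelial markers 1 was higher, ERG, on chromosome 21.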
